A study of Mus musculus with 24 samples.

Results

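DNA methylation and demethylation factors were followed through the mouse maternal-to-zygotic transition as 10 listed genes out of 55471 annotated genes. The members were listed by symbol for their known roles, with earlier results of these data known, and mapped to Ensembl identifiers. They comprise the maintenance methyltransferase Dnmt1 and its partner Uhrf1, the de novo methyltransferases Dnmt3a and Dnmt3b with their cofactor Dnmt3l, the dioxygenases Tet1, Tet2 and Tet3, the maternal factor Dppa3, and the DNA glycosylase Tdg. All 10 had a row in the SLIM-seq counts, and 9 passed the filter on low counts in each SLIM-seq fit. Tdg did not pass.

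In SLIM-seq, a low-input form of m6A RNA immunoprecipitation, RNA captured by an antibody against N6-methyladenosine (IP) is sequenced beside RNA that was not immunoprecipitated (input). The 18 SLIM-seq libraries comprise 3 IP and 3 input libraries each from MII oocytes, late 1-cell (L1C) embryos and late 2-cell (L2C) embryos of B6D2F1 mice, a cross of C57BL/6J with DBA/2N. A further 6 RNA-seq libraries come from L2C embryos that had been injected as early zygotes. Of these, 3 received Cas13d mRNA with 3 crRNAs against Ythdc1 (KD), and 3 received Cas13d mRNA alone (Ctrl). Cas13d, an RNA-guided RNase, was therefore present in both arms, and no arm received a crRNA without a target. Ythdc1 is a nuclear reader of m6A.

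DNA methylation is copied onto newly made strands by DNMT1, which UHRF1 brings to hemimethylated sites, and it is set down on unmethylated DNA by DNMT3A and DNMT3B. TET enzymes oxidise methylcytosine, and TDG can remove some of the oxidised bases. After fertilization the parental genomes lose much of their methylation, TET3 acts on the paternal genome, and DPPA3 guards the maternal one.

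m6A is deposited mostly within a short consensus of which GGACT is a common form. The GGACT of the coding sequence that lies closest to the stop codon is shown for the 4 members whose log2 IP/input lay above 1 or below -1 at 1 or more stages, with the motif in capitals, 5′ to 3′ on the sense strand, from GRCm38.
Dnmt1: ctgctaccaaGGACTag
Uhrf1: acgtctgtaaGGACTgtctggacag
Dnmt3b: cccccttgaaGGACTactttgcctg
Tet1: agagcatcatGGACTtacttagcaa
The Dnmt1 window lies in the last coding exon at chr9:20907521-20907537 on the minus strand and ends at the stop codon. The Dnmt3b window lies at chr2:153686368-153686392 on the plus strand, and the Tet1 window at chr10:62838235-62838259 on the minus strand. The Uhrf1 window is spliced from 2 exons within chr17:56322115-56322369 on the plus strand.

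For each member the transcript with the longest coding sequence was searched. GGACT occurred 3 times in that of Dnmt1, 5 times in that of Uhrf1, 4 times in that of Dnmt3b and 13 times in that of Tet1. Of these 3, 4, 2 and 3 lay in the coding sequence, in the same order, and the windows shown are limited to it. Per kilobase this was 0.559 for Dnmt1, 1.39 for Uhrf1, 0.926 for Dnmt3b and 0.905 for Tet1, beside a median of 1.01 over 21877 protein-coding genes. Dppa3, which was higher in IP than in input at every stage, had no GGACT in its transcript of 833 bases. A match of these letters is a description of the transcript and not a measured site of m6A.

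Input RNA of most members was lower at L2C than in MII oocytes. Levels are given as CPM, a gene's counts relative to the library total after TMM scaling over the 9 inputs, and changes as log2 fold changes with the standard error and the Benjamini-Hochberg adjusted p of edgeR's quasi-likelihood test over 19903 genes. From MII to L2C, 6 of the 9 members tested were lower and 1 was higher. Over all genes tested, 37.1% were called lower and 47.5% higher in that comparison. The median log2 change was -1.28 over the 9 members and 0.40 over all genes tested. CPM is a share of the sequenced RNA, so fewer copies per embryo and a larger total of other RNA cannot be told apart. The methods describe cDNA primed with oligo-dT, so a change of the poly(A) tail cannot be told apart from these either.

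**Figure D1:**
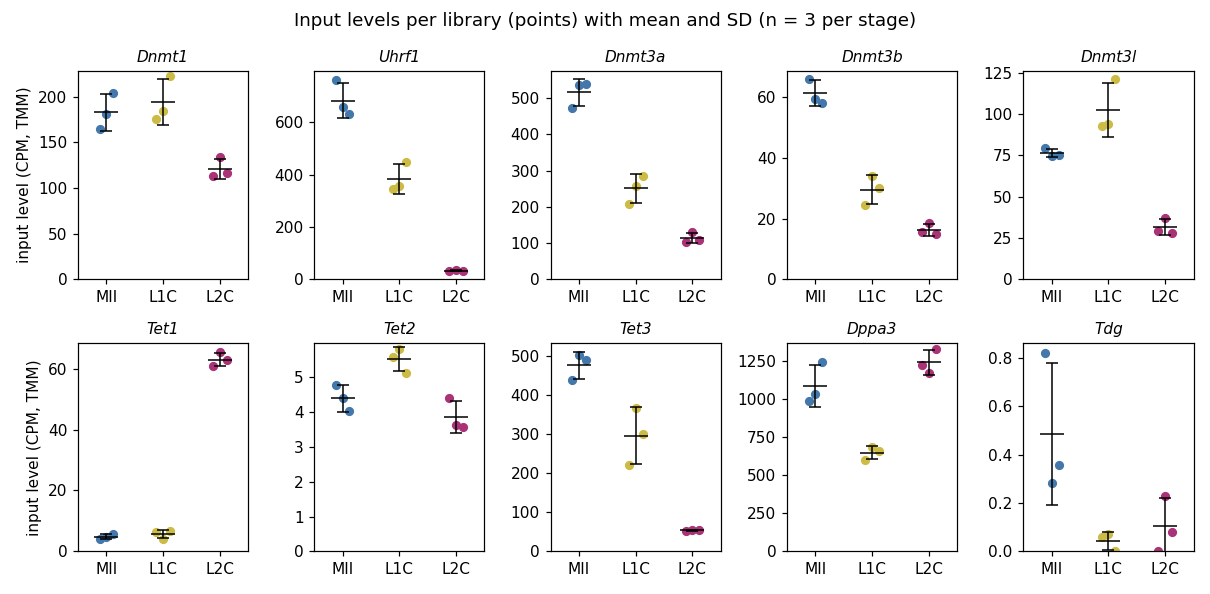
Level of each of the 10 members in the 9 input libraries, in CPM on a linear axis from 0 for MII, L1C and L2C. Points are libraries, and black bars are the mean and SD of 3 libraries, with bars of Tdg ending at the axis. Uhrf1 and Tet3 are lowest at L2C and Tet1 is highest there, with no overlap between L2C and the other stages.

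Among the maintenance factors, Uhrf1, which binds hemimethylated DNA and brings DNMT1 to it, had the larger change. Its input level was 760.3, 657 and 631 CPM at MII, 343, 356 and 447 CPM at L1C, and 31.1, 33.6 and 31.1 CPM at L2C. The 3 stages did not overlap. The log2 change was -0.84 ± 0.13 from MII to L1C (adjusted p = 8.5e-05) and -3.58 ± 0.14 from L1C to L2C (adjusted p = 2.1e-11). A processed pseudogene on the X chromosome, Gm5648, matched 1598 coding bases of Uhrf1 at 98.2% identity, so some reads could be assigned to either.

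Dnmt1, the maintenance methyltransferase, was measured at 164, 180.4 and 204 CPM at MII, 176, 184 and 223 CPM at L1C, and 114, 133 and 116 CPM at L2C. MII and L1C overlapped, and L2C lay below both. The change from MII to L1C was 0.09 ± 0.13 on the log2 scale (adjusted p = 0.6), with an interval of -0.17 to 0.34 (from its SE, not adjusted for the number of genes). From L1C to L2C Dnmt1 fell by 0.68 on the log2 scale (SE 0.13, adjusted p = 0.00024).

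The de novo methyltransferase Dnmt3a was at 474, 537 and 539 CPM at MII, 209, 257 and 286 CPM at L1C, and 103, 129.9 and 108 CPM at L2C. Dnmt3b, the other catalytic de novo enzyme, was at 66.2, 59.5 and 58.3 CPM at MII, 24.5, 33.9 and 30.2 CPM at L1C, and 15.7, 18.5 and 14.8 CPM at L2C. Stages did not overlap for either gene, and both fell at each step. Dnmt3a changed by -1.04 ± 0.14 from MII to L1C (adjusted p = 2.5e-05) and by -1.14 ± 0.14 from L1C to L2C (adjusted p = 2.8e-06). Dnmt3b changed by -1.05 ± 0.15 (adjusted p = 4.6e-05) and by -0.86 ± 0.15 (adjusted p = 0.00011) over the same steps. Dnmt3c, a close relative of Dnmt3b, shares 1353 coding bases with it at 96.3% identity, so their reads may not be separated fully. Dnmt3c itself was at 2.04 to 2.25 CPM in the inputs at MII, 1.23 to 1.53 CPM at L1C and 7.02 to 8.86 CPM at L2C, on the scale of all 18 libraries.

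Dnmt3l, which has no methyltransferase activity of its own and stimulates DNMT3A and DNMT3B, followed a different course. It was at 79.1, 74.4 and 75.1 CPM at MII, 92.6, 93.8 and 121 CPM at L1C, and 29.0, 37.0 and 28.2 CPM at L2C. The L1C libraries lay above both other stages. Dnmt3l rose by 0.43 ± 0.14 on the log2 scale from MII to L1C (adjusted p = 0.02). That call was lost without MII input replicate 2 (adjusted p = 0.072), MII input replicate 3 (0.065) or L1C input replicate 3 (0.11). From L1C to L2C the change was -1.71 ± 0.15 (adjusted p = 6.2e-08). Dnmt3l overlaps the protein-coding gene Aire on the opposite strand. Every other member except Uhrf1 and Dppa3 also overlaps another annotated gene, and Glt8d2, which overlaps Tdg, is the only protein-coding gene among those.

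Tet3, the maternal dioxygenase, was at 438, 502 and 489 CPM at MII, 221, 368 and 301 CPM at L1C, and 52.0, 54.0 and 55.9 CPM at L2C. The stages did not overlap. Tet3 changed by -0.68 ± 0.16 from MII to L1C (adjusted p = 0.002) and by -2.46 ± 0.17 from L1C to L2C (adjusted p = 3.8e-09).

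Tet1 was the member that rose most between stages. It was at 4.08, 4.79 and 5.64 CPM at MII, 6.39, 4.22 and 6.63 CPM at L1C, and 61.0, 65.4 and 62.7 CPM at L2C. MII and L1C overlapped, and every L2C library lay above both. From L1C to L2C the log2 change was 3.45 ± 0.19, an 11.0-fold rise (adjusted p = 4.7e-10). The change from MII to L1C was 0.25 ± 0.19 (adjusted p = 0.28).

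Tet2 stayed between 3.57 and 5.80 CPM in all 9 inputs. It was at 4.78, 4.39 and 4.01 CPM at MII, 5.58, 5.80 and 5.13 CPM at L1C, and 4.39, 3.62 and 3.57 CPM at L2C. The L1C libraries lay above those of L2C, and Tet2 fell by 0.51 on the log2 scale between them (SE 0.20, adjusted p = 0.026). The call was lost without L1C input replicate 2, L2C input replicate 2 or L2C input replicate 3 (adjusted p = 0.058 to 0.084), and with DESeq2 (0.099), scaling by library size alone (0.064) or no filter on low counts (0.075).

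Dppa3, a maternal factor also known as Stella that protects the maternal genome from oxidation, was at 988, 1033 and 1243 CPM at MII, 600.1, 685 and 659 CPM at L1C, and 1227, 1171 and 1332 CPM at L2C. L1C lay below both other stages, and MII and L2C overlapped. The log2 change was -0.75 ± 0.12 from MII to L1C (adjusted p = 0.00014) and 0.94 ± 0.12 from L1C to L2C (adjusted p = 4.9e-06). L2C was 0.19 ± 0.12 above MII on the log2 scale (adjusted p = 0.15), with an interval of -0.04 to 0.43. It passed the threshold with DESeq2 (0.27, adjusted p = 0.029) and with scaling by library size alone (0.34, adjusted p = 0.017).

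Tdg, the glycosylase that excises oxidised methylcytosine, was listed with between 0 and 19.03 estimated counts in the inputs. Processed pseudogenes at 4 other loci matched its coding sequence at 98.7% to 99.3% identity, and reads that match several of them equally may be assigned elsewhere. Its level could not be resolved, and no comparison was made.

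From MII to L1C, 5 of the 9 members were called lower and 1 higher, where 24.3% and 31.9% of all genes tested were called. Between L1C and L2C, 7 members fell and 2 rose, where 38.8% and 44.1% of all genes were called.

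**Figure D2:**
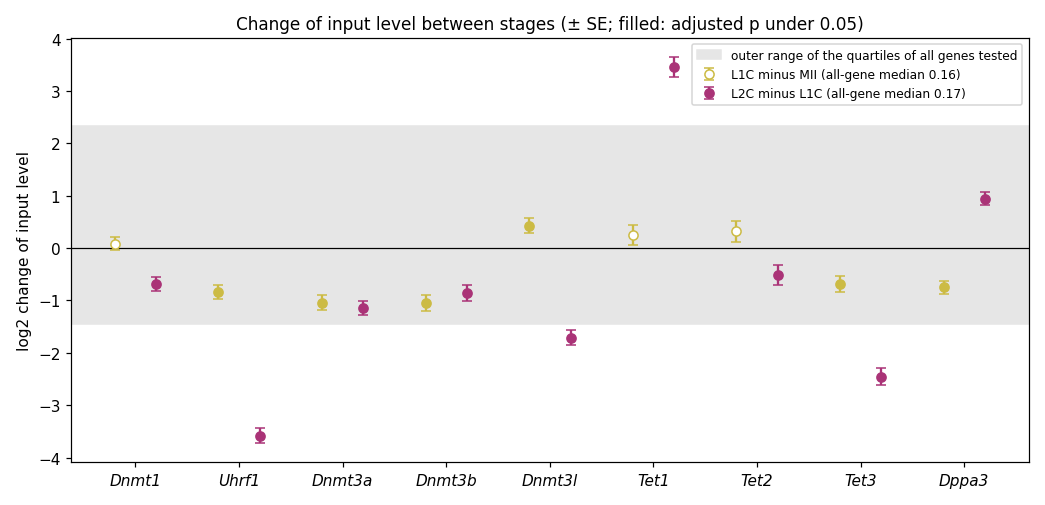
Log2 change of input level with its SE for the 9 tested members, from MII to L1C and from L1C to L2C. Filled points have an adjusted p under 0.05, and the grey band spans the quartiles of all genes tested over both steps. Uhrf1 at -3.58 and Tet1 at 3.45 from L1C to L2C are the points farthest from 0.

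To compare levels between genes, CPM was divided by the annotated exon length. Dppa3 was the highest member at all 3 stages on this scale, at 1219.7 CPM per kilobase at MII, 726 at L1C and 1394 at L2C. Uhrf1 came next at MII and L1C, at 160 and 89.7 CPM per kilobase, and was in the fourth place at L2C at 7.50. Dnmt1 held the sixth place at MII with 24.8 CPM per kilobase and the second at L2C with 16.4. At MII, neighbours in the order overlapped from Dnmt3a (31.0) through Tet3 (28.5) and Dnmt3l (25.5) to Dnmt1 (24.8), so their order was not resolved. At L2C, Uhrf1 overlapped with Dnmt3a (6.82) and Tet3 (3.23) with Dnmt3b (3.20). Counts cover whole gene spans, introns included, so the scale is approximate.

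The genes nearest to each member in input pattern were found among 14314 protein-coding genes, as the root mean square difference of log2(CPM + 1) over the 9 inputs after subtracting each gene's mean. Ndufa10, a respiratory complex subunit, was nearest to Uhrf1 (0.089), B4gat1 to Tet3 (0.061), Ptcd1 to Dnmt3a (0.053) and Rnaseh1 to Dnmt3b (0.098). Mea1 was nearest to Dnmt3l (0.095), Sgk1 to Dnmt1 (0.079), Trp53bp2 to Tet1 (0.12), Zeb2 to Tet2 (0.094) and Mrpl39 to Dppa3 (0.094). These are likenesses of pattern over 3 stages and are descriptive.

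IP was then compared with input at each stage, in 1 fit of all 18 libraries over 21950 genes. CPM in this comparison is scaled over all 18 libraries and is not on the scale of the inputs alone. At MII, 3 of 9 members were higher in IP and 2 lower, where 17.7% and 21.0% of all genes were called. At L1C 2 were higher and 2 lower, where 15.8% and 18.2% were called, and at L2C 2 were higher and 4 lower, where 22.0% and 22.0% were called. With scaling by library size alone the calls over all genes shifted toward higher, from 45.7% to 61.7% of calls at MII, from 46.5% to 70.9% at L1C and from 50.0% to 67.6% at L2C. The median log2 ratio over all genes then moved from 0.00 to 0.20 at MII, from 0.07 to 0.37 at L1C and from 0.09 to 0.34 at L2C, beside 0.02, 0.03 and -0.08 over the 9 members with TMM. A ratio given here is therefore set against the rest of the RNA in its libraries.

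**Figure D3:**
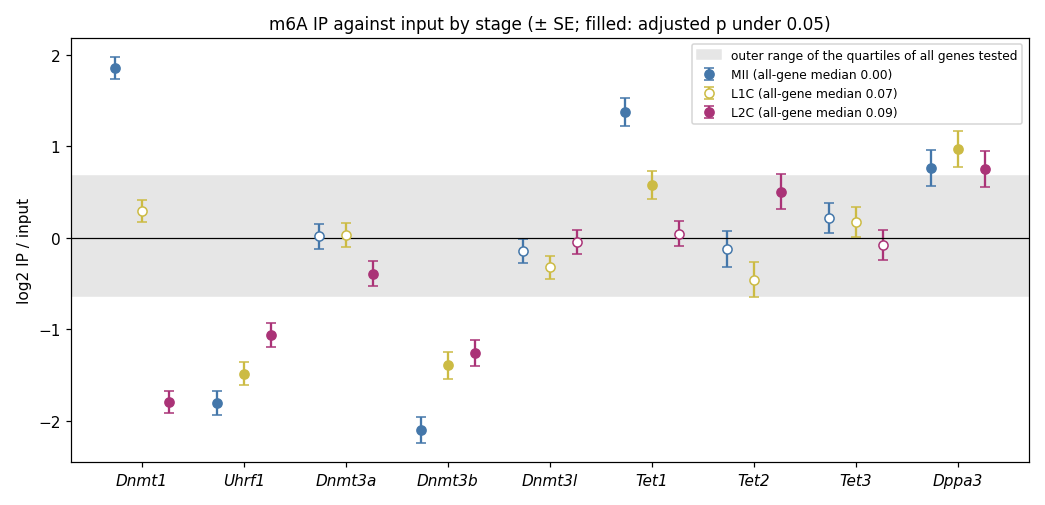
Log2 IP/input with its SE for the 9 tested members at MII, L1C and L2C. Filled points have an adjusted p under 0.05, and the grey band spans the quartiles of all genes tested over the 3 stages. Dnmt1 runs from 1.85 at MII to -1.80 at L2C, while Uhrf1 and Dnmt3b lie below 0 and Dppa3 above 0 at each stage.

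Dnmt1 had the largest change of IP/input between stages among the members. At MII it was at 201, 216 and 243 CPM in the inputs and at 865, 709 and 812 CPM in the IPs. At L1C the inputs were at 201, 209 and 250.1 CPM and the IPs at 298, 255 and 256 CPM. At L2C the inputs were at 109.9, 126 and 112 CPM and the IPs at 34.9, 33.8 and 31.4 CPM. IP lay above input at MII and below it at L2C without overlap, and the L1C groups lay close together with IP above input.

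The log2 IP/input of Dnmt1 was 1.85 ± 0.12 at MII (adjusted p = 6.5e-10), 0.29 ± 0.12 at L1C (adjusted p = 0.062) and -1.80 ± 0.12 at L2C (adjusted p = 3.1e-09). The L1C value passed the threshold without L1C input replicate 3 (0.39, adjusted p = 0.026), with DESeq2 (0.34, adjusted p = 0.03) and with scaling by library size alone (0.60, adjusted p = 0.00093). The difference itself was tested as an interaction of stage and IP. It was -1.56 ± 0.17 from MII to L1C (adjusted p = 7.1e-06), -2.09 ± 0.17 from L1C to L2C (adjusted p = 5.7e-07) and -3.65 ± 0.17 from MII to L2C (adjusted p = 3.4e-10).

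Uhrf1 was lower in IP at all 3 stages. Its inputs were at 930.5, 788 and 751 CPM and its IPs at 227, 259 and 219 CPM at MII. They were at 393, 405 and 502 CPM against 155, 157 and 151 CPM at L1C, and at 30.1, 31.8 and 30.1 CPM against 16.2, 11.8 and 15.5 CPM at L2C. The groups did not overlap at any stage. Log2 IP/input was -1.81 ± 0.13 (adjusted p = 2.2e-09), -1.49 ± 0.13 (adjusted p = 5.5e-08) and -1.07 ± 0.13 (adjusted p = 3.4e-06) in stage order, and the rise from MII to L2C was 0.74 ± 0.18 (adjusted p = 0.0064).

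Dnmt3b was also lower in IP at each stage. Its inputs were at 81.0, 71.4 and 69.4 CPM and its IPs at 16.8, 19.7 and 15.1 CPM at MII. They were at 28.1, 38.5 and 34.0 CPM against 13.8, 12.4 and 12.1 CPM at L1C, and at 15.2, 17.5 and 14.3 CPM against 6.86, 6.00 and 6.64 CPM at L2C. No IP library reached an input library of its stage. Log2 IP/input was -2.10 ± 0.15 (adjusted p = 1.5e-09), -1.40 ± 0.14 (adjusted p = 4.4e-07) and -1.26 ± 0.15 (adjusted p = 1.6e-06), and the difference between L2C and MII was 0.84 ± 0.20 (adjusted p = 0.0057). The step from MII to L1C was 0.70 ± 0.20 (adjusted p = 0.037), a call that held without MII IP replicate 2, L1C input replicate 2 or L1C IP replicate 3 and was lost without any other library of those stages (adjusted p = 0.052 to 0.13), with no filter (0.11), a replicate block (0.1) or only the libraries compared (0.08).

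Dnmt3a and Dnmt3l lay close to equal representation in IP and input. Dnmt3a was 622 ± 36 CPM in input and 628 ± 34 CPM in IP at MII (mean ± SD, n = 3). Its log2 IP/input was 0.02 ± 0.13 at MII (adjusted p = 1) and 0.03 ± 0.13 at L1C (adjusted p = 0.89). At L2C its inputs were at 100.0, 123 and 104 CPM and its IPs at 85.6, 79.6 and 83.7 CPM, without overlap. The L2C ratio was -0.39 ± 0.13 (adjusted p = 0.024), a call lost without L2C input replicate 2 (adjusted p = 0.11), L2C IP replicate 2 (0.062) or L2C IP replicate 3 (0.056), and with scaling by library size alone (0.4). Dnmt3l was at -0.14 ± 0.13, -0.32 ± 0.13 and -0.05 ± 0.13 in stage order and was not called at any stage. Its L1C value passed the threshold without L1C input replicate 1 (-0.39, adjusted p = 0.044) or L1C IP replicate 1 (-0.43, adjusted p = 0.037).

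Tet1 was higher in IP at the stages where its input was low. At MII its inputs were at 4.99, 5.75 and 6.70 CPM and its IPs at 14.3, 15.5 and 15.3 CPM. At L1C they were at 7.31, 4.80 and 7.45 CPM against 10.0, 9.81 and 9.36 CPM, and at L2C at 59.0, 61.9 and 60.7 CPM against 61.7, 62.1 and 63.7 CPM. IP and input did not overlap at MII and L1C and overlapped at L2C. Log2 IP/input was 1.37 ± 0.15 at MII (adjusted p = 6e-07), 0.58 ± 0.15 at L1C (adjusted p = 0.0052) and 0.05 ± 0.14 at L2C (adjusted p = 0.82). The interaction from MII to L2C was -1.33 ± 0.20 (adjusted p = 0.00012). The step from MII to L1C was -0.80 ± 0.21 (adjusted p = 0.025), a call lost without MII input replicate 1 or 2, MII IP replicate 2, L1C input replicate 1 or 3, or L1C IP replicate 2 or 3 (adjusted p = 0.051 to 0.076), and with no filter (0.067) or a replicate block (0.077).

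Tet2 was not called at MII or L1C, at -0.12 ± 0.20 and -0.46 ± 0.19. At L2C its inputs were at 4.25, 3.43 and 3.46 CPM and its IPs at 5.26, 4.85 and 5.66 CPM, without overlap. Log2 IP/input was 0.51 ± 0.19 (adjusted p = 0.039), and the call was lost without L2C input replicate 2, L2C input replicate 3, L2C IP replicate 1 or L2C IP replicate 3 (adjusted p = 0.081 to 0.13), and with no filter (0.21), a replicate block (0.067) or only the L2C libraries (0.05). Tet3 was at 0.21 ± 0.16, 0.18 ± 0.16 and -0.08 ± 0.17 in stage order and was not called. With scaling by library size alone Tet3 passed the threshold at MII (0.45, adjusted p = 0.033) and L1C (0.47, adjusted p = 0.027), and with only the MII libraries fitted it did so at MII (0.26, adjusted p = 0.029).

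Dppa3 was higher in IP at all 3 stages. At MII its inputs were at 1209, 1239 and 1479 CPM and its IPs at 2336, 1874 and 2452 CPM. At L1C they were at 687, 779 and 740.0 CPM against 1639.8, 1224 and 1450.0 CPM. At L2C the inputs were at 1188, 1109 and 1290.3 CPM and the IPs at 1525, 2927 and 1593 CPM. IP lay above input at each stage, and L2C IP replicate 2, the shallowest library with 11107421 estimated counts, lay far above the other L2C IPs. Log2 IP/input was 0.76 ± 0.19 (adjusted p = 0.0039), 0.97 ± 0.20 (adjusted p = 0.00069) and 0.75 ± 0.19 (adjusted p = 0.0041). Without L2C IP replicate 2 the L2C value was 0.38 (adjusted p = 0.042).

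The changes of IP/input over all genes give the scale for these interactions. Of all genes tested, 3.13% were called higher and 4.21% lower from MII to L1C, where 1 member was higher and 2 were lower. With scaling by library size alone the share of those calls that were higher moved from 42.6% to 53.3%. From L1C to L2C 5.0% were higher and 4.47% lower, where 1 member, Tet2, was higher (0.97 ± 0.27, adjusted p = 0.03) and 1, Dnmt1, was lower. The Tet2 call was lost without L1C input replicate 1 or 2, L1C IP replicate 2 or 3, L2C input replicate 2 or 3, or L2C IP replicate 1 or 3 (adjusted p = 0.053 to 0.079), and with no filter (0.14), a replicate block (0.073) or only the libraries compared (0.07). With scaling by library size alone 44.8% of the calls from L1C to L2C were higher, in place of 52.8%. From MII to L2C 11.1% were higher and 9.21% lower, where 2 members were higher and 2 lower. The comparisons that share a stage share its libraries.

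In the knockdown, Ythdc1 itself was at 523, 541 and 519 CPM in KD and 1080.2, 1098 and 994 CPM in Ctrl. The arms did not overlap, and Ythdc1 fell by 1.00 on the log2 scale (SE 0.06, adjusted p = 1.3e-10). The merged count table of the 6 libraries holds 25739 genes and 4 of the members, and KD replicate 3 has values only for those genes. The other 6 members were taken from the 5 libraries with values for the whole annotation, so their KD arm is 2 libraries. CPM in the 2 sets is scaled to different totals and is not comparable between them. Of the 4 members in the merged table, 2 were higher and 2 lower, where 33.5% and 37.4% of 7433 genes tested were called. Of the other 6 members 5 were tested in the whole annotation, and 0 were higher and 3 lower, where 30.5% and 36.4% of 17074 genes were called. The median log2 change was -0.18 over the 4 members and -0.06 over all genes of the merged table, and -0.42 over the 5 members and -0.09 over all genes of the whole annotation. DESeq2 called 0 of the 5 higher as well, and 0 rose at an unadjusted p under 0.05.

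**Figure D4:**
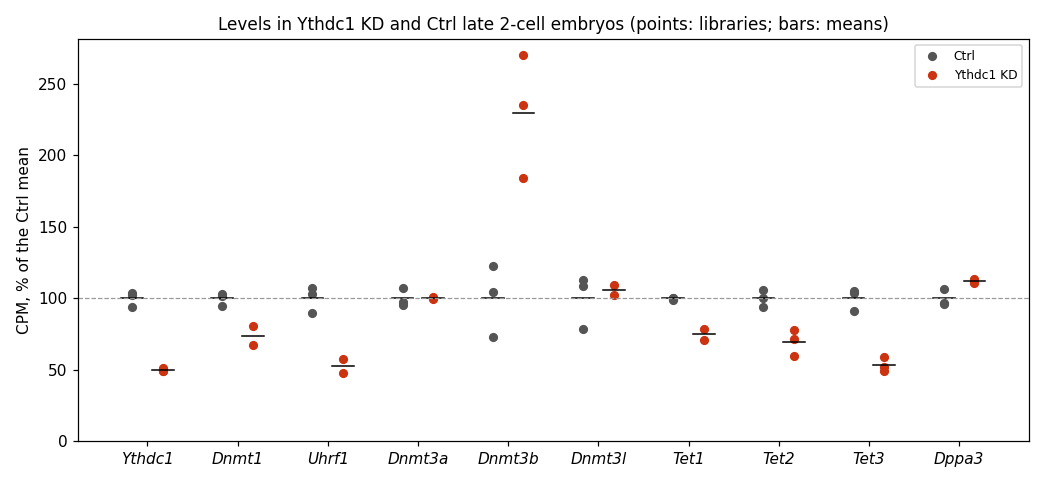
Level of Ythdc1 and of 9 members in Ctrl and Ythdc1 KD embryos at L2C, as percent of the Ctrl mean on a linear axis from 0. Points are libraries and bars are means, with 3 KD libraries for Ythdc1, Dnmt3b, Tet2, Tet3 and Dppa3 and 2 for the others. Uhrf1 and Tet3 in KD lie between 47.7% and 58.8% of the Ctrl mean, and Dnmt3b lies above 184%.

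Tet3 was at 147, 174 and 155 CPM in KD and 269.8, 311 and 308 CPM in Ctrl. Uhrf1, in the whole annotation, was at 20.8 and 25.3 CPM in KD and 39.02, 44.9 and 46.9 CPM in Ctrl. KD lay below Ctrl without overlap for both genes. Tet3 changed by -0.90 ± 0.09 (adjusted p = 3e-08) and Uhrf1 by -0.92 ± 0.13 (adjusted p = 1.2e-05) on the log2 scale.

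Dnmt1 was at 28.5 and 33.9 CPM in KD and 40.0, 43.0 and 43.4 CPM in Ctrl. Tet1 was at 70.9 and 63.7 CPM in KD and 90.5, 90.3 and 89.1 CPM in Ctrl. Tet2 was at 15.3, 20.04 and 18.4 CPM in KD and 25.7, 24.1 and 27.2 CPM in Ctrl. KD lay below Ctrl without overlap for each of these 3 genes. Dnmt1 changed by -0.43 ± 0.11 (adjusted p = 0.0032), Tet1 by -0.42 ± 0.09 (adjusted p = 0.001) and Tet2 by -0.52 ± 0.17 (adjusted p = 0.0091). Without KD replicate 1 the call of Tet2 was lost (adjusted p = 0.053). That of Dnmt1 was lost as well (adjusted p = 0.078), in a fit with 1 KD library, which is assumed to vary like the Ctrl libraries.

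Dnmt3b was higher in KD, at 42, 46 and 76 counts against 32, 20 and 23 counts in Ctrl. In CPM this was 10.0, 12.8 and 14.7 in KD and 5.68, 3.98 and 6.66 in Ctrl, without overlap. The log2 change was 1.22 ± 0.28 (adjusted p = 0.00084), on low counts. Its relative Dnmt3c had 32 and 27 counts in KD replicates 1 and 2 and 21, 24 and 13 counts in Ctrl, and the part of reads shared between the genes in the change of Dnmt3b was not tested. Dppa3 was at 38558, 39588 and 39173 CPM in KD and 33562, 33891 and 37222 CPM in Ctrl, and rose by 0.16 ± 0.05 on the log2 scale (adjusted p = 0.0073). With scaling by library size alone Dppa3 changed by 0.04 (adjusted p = 0.46).

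Dnmt3a was at 115 and 113 CPM in KD and 111, 109 and 123 CPM in Ctrl, with a log2 change of 0.00 ± 0.09 (adjusted p = 0.98) and an interval of -0.17 to 0.18. Dnmt3l was at 29.6 and 31.6 CPM in KD and 32.5, 22.7 and 31.2 CPM in Ctrl, with a log2 change of 0.09 ± 0.14 (adjusted p = 0.61) and an interval of -0.19 to 0.37. The arms overlapped for both. Tdg had 0 counts in both KD libraries and at most 2 in Ctrl.

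Markers of stage also differed between the arms. All 7 tested of 8 listed 2-cell transcripts were lower in KD, with a summed level of 377 to 447 CPM in KD and 1504 to 1677 CPM in Ctrl, where 36.4% of all genes tested were called lower and 30.5% higher. Of 10 oocyte transcripts 7 were lower and 2 higher, with a summed level of 1222 to 1327 CPM in KD and 2484 to 2600 CPM in Ctrl. Cumulus cell markers summed to 8.03 to 9.99 CPM in KD and 8.47 to 11.3 CPM in Ctrl, with Ptx3, Cd44 and Fshr at 0 in all 5 libraries, and 1 of the 2 tested was lower in KD. The 5 sperm markers summed to 0 to 0.11 CPM in KD and 2.11 to 4.13 CPM in Ctrl, with Prm1 and Odf1 at 0 in all 5 libraries. The 4 blood markers summed to 8.42 to 11.0 CPM in KD and 19.2 to 25.04 CPM in Ctrl, with Hbb-bs and Ptprc at 0 in all 5. The 1 sperm marker and the 1 blood marker that could be tested were lower in KD. The part of stage or of other cell types in the changes of the members was not tested.

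In the SLIM-seq inputs the oocyte transcripts summed to 12035 to 13720 CPM at MII, 7604 to 8434 CPM at L1C and 1044 to 1109 CPM at L2C, and the 2-cell transcripts to 35.5 to 43.9, 224 to 256 and 497 to 689 CPM, on the scale of all 18 libraries. The 10 cumulus markers summed to 45.9 to 56.8 CPM at MII, 31.5 to 37.5 CPM at L1C and 3.12 to 4.58 CPM at L2C, with Ptx3 at 0 in every input. Sperm markers summed to 2.95 to 3.67 CPM at MII, 2.89 to 3.11 CPM at L1C and 53.8 to 69.9 CPM at L2C, and blood markers to 2.77 to 4.35, 0.858 to 0.945 and 8.12 to 11.0 CPM. Their part in the changes between stages was not tested.

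Other genes of the pathway were described with 6 lists of 50 genes in all, of which 49 were tested in the SLIM-seq fits. From MII to L1C 16 rose and 16 fell, where 31.9% of all genes were called higher and 24.3% lower. Gadd45g, a stress-inducible gene of the Gadd45 family, had the smallest p among those that rose (4.82 ± 0.37, adjusted p = 1.4e-07), and Xrcc1, a scaffold of single-strand break repair, among those that fell (-2.75 ± 0.17, adjusted p = 1.3e-08). Between L1C and L2C the lists had 19 higher and 21 lower genes (44.1% and 38.8% of all genes), led by Hdac1, a histone deacetylase (4.57 ± 0.18, adjusted p = 2.2e-11), and Neil3, a DNA glycosylase (-4.86 ± 0.14, adjusted p = 1.2e-12). From MII to L2C 22 rose and 22 fell (47.5% and 37.1% of all genes), and the same pair had the smallest p. The median log2 change over the 49 genes was -0.11 in that comparison, beside 0.40 over all genes.

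In IP against input at MII, 11 of the 49 were higher and 17 lower, where 17.7% of all genes were called higher and 21.0% lower. The counts were 11 higher with 15 lower at L1C (15.8% and 18.2% of all genes), while L2C had 8 higher with 20 lower (22.0% and 22.0%). Kdm1b, a histone demethylase needed for maternal imprints, was lower in IP at all 3 stages, at -2.51 ± 0.11 (adjusted p = 1.2e-11), -2.26 ± 0.11 (adjusted p = 1.1e-10) and -1.96 ± 0.11 (adjusted p = 5.9e-10). Trim28, a corepressor that protects imprints, was higher at MII (1.70 ± 0.16, adjusted p = 6.3e-08) and L1C (1.61 ± 0.17, adjusted p = 5.6e-07), and Mbd2, a reader of methylated DNA, led at L2C (1.41 ± 0.15, adjusted p = 8.1e-07).

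In the knockdown, 15 of 48 tested genes of the lists were higher and 13 lower in the whole annotation, where 30.5% of all genes were called higher and 36.4% lower. Mbd2 had the smallest p among the lower genes (-3.59 ± 0.23, adjusted p = 5e-09). Among 20 tested in the merged table, 8 were higher and 5 lower, where 33.5% and 37.4% of all genes were called. Trdmt1, an RNA methyltransferase related to the DNA methyltransferases, had 0 counts in all 3 KD libraries and 25, 23 and 20 counts in Ctrl, and was at least 20.8-fold lower, taking 3 counts over the KD group as the floor. In the whole annotation 36.4% of all genes were lower and 30.5% higher. Of 8 genes listed as readers of methylated DNA there, 5 were lower and 0 higher. Of 7 listed for imprint protection 5 were higher and 0 lower. Of 8 genes listed as cofactors of maintenance, which include Trdmt1, 2 were higher and 2 lower. Of 15 tested genes of base excision and related enzymes 6 were higher and 5 lower. Of 5 genes that guide de novo methylation 1 was higher and 0 lower, and of 5 tested TET partners 1 was higher and 1 lower. No list was tested as a set.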

How the data were processed

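Per the labels and the study's methods, kallisto was run by the authors on the SLIM-seq reads, which gave the deposited estimated counts and TPM. The methods do not describe the targets, but all 55471 have the length of the gene span, introns included. The knockdown files hold raw counts on exons that the authors made with featureCounts 2.0.1, without a strand option, after Trimmomatic and HISAT2. The labels name a stranded kit and the methods Smart-seq2, so sense and antisense reads were not separated. The methods describe cDNA primed with oligo-dT for the RNA-seq libraries, where counts also depend on the poly(A) tail. Total estimated counts were 11107421 to 39739950 per SLIM-seq library, and total counts were 8696476 to 14500548 in the 5 whole knockdown libraries and 3276715 to 5463868 in the merged table.

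Estimated counts were rounded and fitted with edgeR 4.0.16 in R 4.3.3 (TMM, filter on low counts, quasi-likelihood test), with 1 coefficient per group. Calls use a Benjamini-Hochberg adjusted p under 0.05 over all genes tested, and SEs are those of the log2 change. TPM served only for an alternative order of levels. DESeq2 1.42.0, scaling by library size, no filter, a replicate block, fewer libraries and the study's thresholds were alternatives. Tables and plots used Python 3.11.15, pandas 2.3.3, numpy 2.4.6 and matplotlib 3.10.9, and copies of members were searched with blastn 2.17.0 (at least 90% identity over 200 coding bases). On simulated data with 200 of 21950 genes changed by 1.5 on the log2 scale, 173 were recovered for IP against input in L1C, with 9 false calls, and 126 for the change of that ratio from MII to L2C, with 4. Genes with low mean counts were not among those changed, and apart from the change each gene had the same level in all groups. Recovery of smaller changes, or of changes in genes with low counts, was not measured.

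The members and lists were chosen with earlier results of these data known. Named were all 10 members, the nearest gene in input pattern, and from the pathway lists the called gene with the smallest p in each direction, of which 1 is not reported here. Nothing states that replicates came from separate collections, so p-values measure the spread between these samples. Replicates of every group differed by more than counting error. The methods take IP and input from the same batches of RNA without saying that replicate numbers match them. Same-numbered libraries did not deviate together, so the numbers were not treated as pairs.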

Additional observations from a re-analysis of the deposited data

Results flagged for a closer look

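The IP/input ratio of 5 members differed between stages in 1 or more of 3 comparisons. The test was of the difference itself, the interaction of stage and IP in edgeR's quasi-likelihood fit with Benjamini-Hochberg adjustment. Of all genes 3.13% were called higher and 4.21% lower from MII to L1C, and 5.0% and 4.47% from L1C to L2C. From MII to L2C these shares were 11.1% and 9.21%. A share called in any of the 3 was not computed. Dnmt1 changed by -1.56 ± 0.17 on the log2 scale from MII to L1C (adjusted p = 7.1e-06), by -2.09 ± 0.17 from L1C to L2C (adjusted p = 5.7e-07) and by -3.65 ± 0.17 from MII to L2C (adjusted p = 3.4e-10). These 3 differences kept their direction and stayed past the threshold under all 17 alternatives run for each.

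Tet1 changed by -0.80 ± 0.21 from MII to L1C (adjusted p = 0.025) and by -1.33 ± 0.20 from MII to L2C (adjusted p = 0.00012), calls that held under 8 and 17 of 17 alternatives. Dnmt3b changed by 0.70 ± 0.20 from MII to L1C (adjusted p = 0.037) and by 0.84 ± 0.20 from MII to L2C (adjusted p = 0.0057), calls that held under 5 and 17 of 17. Uhrf1 changed by 0.74 ± 0.18 from MII to L2C (adjusted p = 0.0064), a call that held under 17 of 17. Tet2 changed by 0.97 ± 0.27 from L1C to L2C (adjusted p = 0.03), and its call held under 6 of 17 alternatives.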

How the results depend on the processing

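Across alternatives, IP against input kept its direction and call for Uhrf1, Dnmt3b and Dppa3 at all 3 stages, for Dnmt1 at MII and L2C, and for Tet1 at MII and L1C. DESeq2 gave 2 members higher in inputs from MII to L2C, where 9545 of 19903 genes were called higher. It gave 2 lower in enrichment, the change of IP/input between stages, from L1C to L2C (1718 of 21950 genes called). Scaling by library size gave 4 members higher in IP at L1C (6372 of 21950 genes called). It gave 2 higher in inputs from MII to L2C (9767 of 19903) and 1 higher in the merged knockdown table (2147 of 7433). The fit without a filter gave 1 member higher in IP at L2C (4626 of 38269 genes called). In enrichment it gave 0 higher (751 genes) and 1 lower (983) from MII to L1C and 0 higher (1025) from L1C to L2C. With only the libraries compared there was 1 member higher in IP at L2C (4527 of 20328 genes called) and 0 higher in enrichment from MII to L1C (444 of 18645). From L1C to L2C 0 were higher and 2 lower (566 and 1687 of 22162), and from MII to L2C 4 were lower (2990 of 21001). The study's thresholds gave 1 higher and 0 lower in the merged knockdown table (1092 and 1672 genes) and 0 lower in the whole annotation (4183 genes).

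The replicate block gave 1 member higher in IP at L2C, where 4194 of 21950 genes were called higher. In enrichment it gave 0 higher and 1 lower (687 of 21950 genes called) from MII to L1C and 0 higher from L1C to L2C. The members that lost a call under the block were Tet2 in IP at L2C (adjusted p = 0.067), Dnmt3b (0.1) and Tet1 (0.077) in enrichment from MII to L1C, and Tet2 from L1C to L2C (0.073). Over all genes the block lowered the calls of changed enrichment to 380 higher from MII to L1C (686 without it) and to 603 higher and 565 lower from L1C to L2C (1098 and 981). For same-numbered libraries, deviations of log2 CPM from the group means had correlations between -0.13 and 0.11. These deviations did not all correlate best with those of their own number. The block changed no other count of members by over 1.5 times.

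Values close to 0 changed sign. With library size alone IP/input was 0.11 for Tet2 and 0.091 for Dnmt3l at MII, 0.17 for Tet3 and 0.20 for Dnmt3l at L2C, enrichment changed by 0.022 for Tet3 (MII to L1C) and 0.015 for Dppa3 (MII to L2C), and Dnmt3a in the knockdown by -0.074. Without a filter that was -0.018. With DESeq2 Dnmt3a changed in enrichment by -0.010 from MII to L1C, and with only the libraries compared by -0.072, Dnmt3b by -0.061 (L1C to L2C) and Dnmt3l by -0.076 (MII to L2C).

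Leaving out 1 library gave IP/input of -0.031 to 0.058 for Dnmt3a and -0.34 to 0.037 for Tet2 at MII, -0.14 to 0.13 for Dnmt3a and -0.052 to 0.36 for Tet3 at L1C, and -0.13 to 0.062 for Dnmt3l at L2C. Enrichment changed by -0.16 to 0.11 for Dnmt3a and -0.27 to 0.15 for Tet3 (MII to L1C) and -0.38 to 0.15 for Dppa3 (MII to L2C), input Dnmt1 by -0.029 to 0.16 (MII to L1C), and knockdown Dnmt3a by -0.039 to 0.046 and Dnmt3l by -0.070 to 0.19. Members called were then 1 to 2 higher in IP at L2C, 0 to 1 higher in inputs from MII to L1C, 0 to 1 higher and 1 to 2 lower in enrichment from MII to L1C, 0 to 1 higher from L1C to L2C, and 1 to 2 lower in the merged knockdown table. With all libraries 22.0%, 31.9%, 3.13%, 4.21%, 5.0% and 37.4% of all genes were called, in the same order.

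With the deposited TPM 6 of 10 members kept their rank for MII oocytes, as did 8 in either embryo stage, and with 1 input left out 8 to 10 did at MII and at L2C. With a pseudocount of 0.1, 11 of 18 nearest genes were shared. Over all genes, library size alone called 6372 higher and 2613 lower in IP at L1C (3463 and 3988 in the fit as reported) and 7315 higher at L2C (4830). Calls of changed enrichment became 444 higher from MII to L1C and 566 higher with 1687 lower from L1C to L2C with only the libraries compared, and DESeq2 gave 1718 lower there. The study's thresholds gave 1092 higher and 1672 lower in the merged knockdown table (2487 and 2782 as reported) and 2456 higher in the whole annotation (5200 as reported). Library size moved the median over all genes from 0.40 to 0.54 in inputs from MII to L2C and from -0.06 to -0.19 in the merged knockdown table. The cause of these shifts was not tested. Counts of 42 to 76 in KD and 20 to 32 in Ctrl limit the precision for Dnmt3b.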
